A study of Mus musculus with 32 samples.

Results

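The genes of the voltage-gated calcium and sodium channels were followed through the transcriptomes of the hippocampus (HPC), the meninges and sorted meningeal lymphatic endothelial cells (mLECs) of 5xFAD mice with and without light treatment. The genes were chosen by symbol alone, as every gene named Cacna1, Cacna2d, Cacnb or Cacng with its suffix, or Scn with a number and the letter a or b. This gave 40 of the 22337 genes in the deposited tables, of which 26 encode calcium channel subunits and 14 encode sodium channel subunits. All mice were 6-month-old males on a C57BL/6J background. The groups were WT, which were littermates without the transgene, 5xFAD, which carries mutant human transgenes, APP among them, driven by the neuronal Thy1 promoter, and 5xFAD + light, in which 5xFAD mice received near-infrared light over the shaved head. Untreated mice were anaesthetised and shaved in the same way and kept under indoor lighting. There were 4 HPC samples in each group, 4 WT, 3 5xFAD and 3 5xFAD + light samples of meninges, and 4, 3 and 3 samples of mLECs, each from 1 animal, with libraries made by Smart-seq2.

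A voltage-gated calcium or sodium channel is built around a large pore-forming alpha subunit that opens when the membrane depolarises. Sodium channels carry the rising phase of the action potential, and their beta subunits shape gating and surface expression. Calcium channels turn depolarisation into calcium entry, which drives transmitter release at nerve endings, dendritic excitability and transcription in the soma, and their beta and alpha2delta subunits carry the pore to the membrane. Several gamma subunits, the TARPs, mainly serve as partners of AMPA-type glutamate receptors. In the hippocampus these genes are expressed largely by neurons, while some members are known from muscle, heart, retina or sensory ganglia.

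Each HPC library held 13952825 to 23856476 estimated counts, each meninges library 6601143 to 14708202 and each mLEC library 14231415 to 24207326. Levels below are in FPKM, the number of fragments scaled to transcript length and library size. Differences are log2 fold changes with their standard errors from edgeR, and a gene was said to rise or fall when its p, adjusted by the Benjamini-Hochberg method over all genes tested in that tissue, was below 0.05. Genes entered a test when they reached 1 FPKM in at least 3 libraries of the tissue, which admitted 30 of the 40 channel genes in HPC, 28 in meninges and 2 in mLECs. In these bulk samples, fewer cells of a type and less RNA per cell cannot be told apart. 1 HPC library stood apart in some of its cell type markers. The summed level of 5 dentate gyrus markers was 14.4 FPKM in replicate 3 of 5xFAD and 76.8 to 214.2 FPKM in the other 11 libraries. That library was also lowest for CA1 and CA3 markers and highest for blood endothelial markers, at 143.9 FPKM. Its general and excitatory neuron markers, at 2817 and 1988 FPKM, lay within the range of the others. HPC results are therefore given without it as well where it changed a call or a count.

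Sequences before the RefSeq start of 4 genes on which the HPC comparisons turn, 2 calcium and 2 sodium channel pores, are shown first, because 2 of them rose under light and 2 fell in 5xFAD in the results that follow. Each is the 250 bases before the RefSeq start, written 5′ to 3′ on the strand of the gene, in build GRCm38.p6. Cacna1c lies on the minus strand (chr6:119196410-119196659, the most upstream of 3 entries), Cacna1e on the minus strand (chr1:154725921-154726170), Scn2a on the plus strand (chr2:65620519-65620768) and Scn8a on the plus strand (chr15:100870395-100870644). In the GENCODE annotation the stretches of Cacna1c and Scn2a lie at the most upstream start of the gene, while that of Scn8a begins 537 bases and that of Cacna1e 158331 bases downstream of it, inside the gene. Capitals mark matches to the motifs searched.
Cacna1c: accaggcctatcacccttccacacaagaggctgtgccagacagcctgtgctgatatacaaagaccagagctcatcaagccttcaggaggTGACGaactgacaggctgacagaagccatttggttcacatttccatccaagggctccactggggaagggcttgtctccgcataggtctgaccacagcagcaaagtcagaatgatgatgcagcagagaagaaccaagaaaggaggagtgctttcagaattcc
Cacna1e: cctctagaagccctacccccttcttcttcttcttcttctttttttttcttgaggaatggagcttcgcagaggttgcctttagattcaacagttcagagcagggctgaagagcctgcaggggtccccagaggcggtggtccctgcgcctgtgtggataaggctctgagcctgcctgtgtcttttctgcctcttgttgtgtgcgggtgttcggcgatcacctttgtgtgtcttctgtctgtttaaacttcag
Scn2a: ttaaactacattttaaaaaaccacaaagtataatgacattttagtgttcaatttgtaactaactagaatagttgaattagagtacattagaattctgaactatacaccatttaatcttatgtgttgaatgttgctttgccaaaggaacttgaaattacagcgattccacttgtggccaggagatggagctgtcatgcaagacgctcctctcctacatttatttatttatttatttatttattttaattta
Scn8a: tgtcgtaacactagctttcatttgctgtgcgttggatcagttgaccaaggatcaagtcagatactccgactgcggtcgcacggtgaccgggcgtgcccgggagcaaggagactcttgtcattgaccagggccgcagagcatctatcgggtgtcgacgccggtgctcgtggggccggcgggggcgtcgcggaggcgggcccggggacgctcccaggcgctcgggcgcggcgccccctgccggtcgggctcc
The 4 stretches differed in base composition, with a GC content of 29.6% for Scn2a, 51.6% for Cacna1c, 52% for Cacna1e and 68% for Scn8a. The GC box (GGGCGG), the TATA box (TATAAA), the core of the CRE (TGACG) and the right-hand part of the RE1 element (GGACAG) were searched on both strands, and in the printed bases only 1 CRE core was found, in the stretch of Cacna1c. RefSeq windows of 300 bases, which run 50 bases past the start, were at hand for 30 of the 40 genes, as 41 entries. Of these 39.0% held a GC box, against 35.7% of all 32851 windows. The CRE core was in 14.6% of them against 20.8%, the TATA box in 4.9% against 13.6% and the RE1 part in 17.1% against 22.2%. A match is a description of these letters, not of a bound site.

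In WT HPC, 29 of the 40 genes reached a mean of 1 FPKM and 15 reached 10 FPKM, while in WT meninges 31 reached 1 FPKM but 2 reached 10 FPKM. Auxiliary subunits had the highest levels in HPC. Scn2b, the sodium channel beta2 subunit, was at 78.6 ± 3.19 FPKM (SD, n = 4). Cacnb3, a cytoplasmic calcium channel beta subunit, and Scn3b, the sodium channel beta3 subunit, followed at 76.6 ± 7.62 and 72.5 ± 4.28 FPKM. Cacnb3 overlapped with both of the others in these 4 mice, while every Scn2b value lay above every Scn3b value. Of the 11 neighbouring pairs among the first 12 genes in order of level, 5 overlapped in HPC and 10 overlapped in meninges.

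Among the pores in WT HPC, Scn2a, the main sodium channel of excitatory axons, led with 44.5 ± 0.656 FPKM. Scn1a, known from inhibitory interneurons, and Scn8a, which sets the threshold at the axon initial segment, were close together at 26.9 ± 0.832 and 26.4 ± 2.2 FPKM. Scn3a, which is most active before birth, was lower at 7.84 ± 1.35 FPKM. The leading calcium pore was Cacna1e, the R-type channel of dendrites and nerve endings, at 19.4 ± 2.21 FPKM. Cacna1h, a T-type channel that opens near rest, was at 5.9 ± 1.32 FPKM. The presynaptic N-type and P/Q-type pores Cacna1b and Cacna1a were at 4.45 ± 1.13 and 2.42 ± 0.377 FPKM. The L-type pores of neurons, Cacna1c and Cacna1d, were at 1.72 ± 0.285 and 1.64 ± 0.083 FPKM, and the T-type pores Cacna1g and Cacna1i were at 1.23 ± 0.218 and 1.25 ± 0.426 FPKM. The longest annotated transcript was 8 kb or more for all of these pores except Cacna1a.

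The other auxiliary genes covered a wide range over the 12 HPC libraries. Cacnb1 ran from 18.8 to 45.3 FPKM, Cacnb4 from 9.22 to 27.0 FPKM and Cacnb2 from 1.39 to 2.98 FPKM. The alpha2delta genes, whose products raise the number of channels at the membrane, separated into an abundant pair, Cacna2d1 from 9.84 to 20.1 FPKM and Cacna2d3 from 11.7 to 16.7 FPKM, and a scarce pair, Cacna2d2 from 0.53 to 2.27 FPKM and Cacna2d4 from 0.13 to 0.63 FPKM. Of the TARPs, Cacng3 ran from 25.6 to 41.9, Cacng8 from 13.0 to 37.0 and Cacng2 from 10.2 to 16.4 FPKM. Cacng5, Cacng7 and Cacng4 were lower, at 2.28 to 9.52, 0.84 to 4.32 and 1.1 to 3.06 FPKM. Cacng6 ran from 0.65 to 1.51 FPKM and Scn4b, the beta4 subunit, from 1.43 to 7.94 FPKM. The genes known from muscle, retina or sensory ganglia were near 0 in HPC. Cacna1s reached at most 0.37, Cacna1f 0.28, Cacng1 0.04, Scn4a 0.03, Scn7a 0.48, Scn9a 0.59, Scn10a 0.07 and Scn11a 0.07 FPKM in any HPC library.

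**Figure D1:**
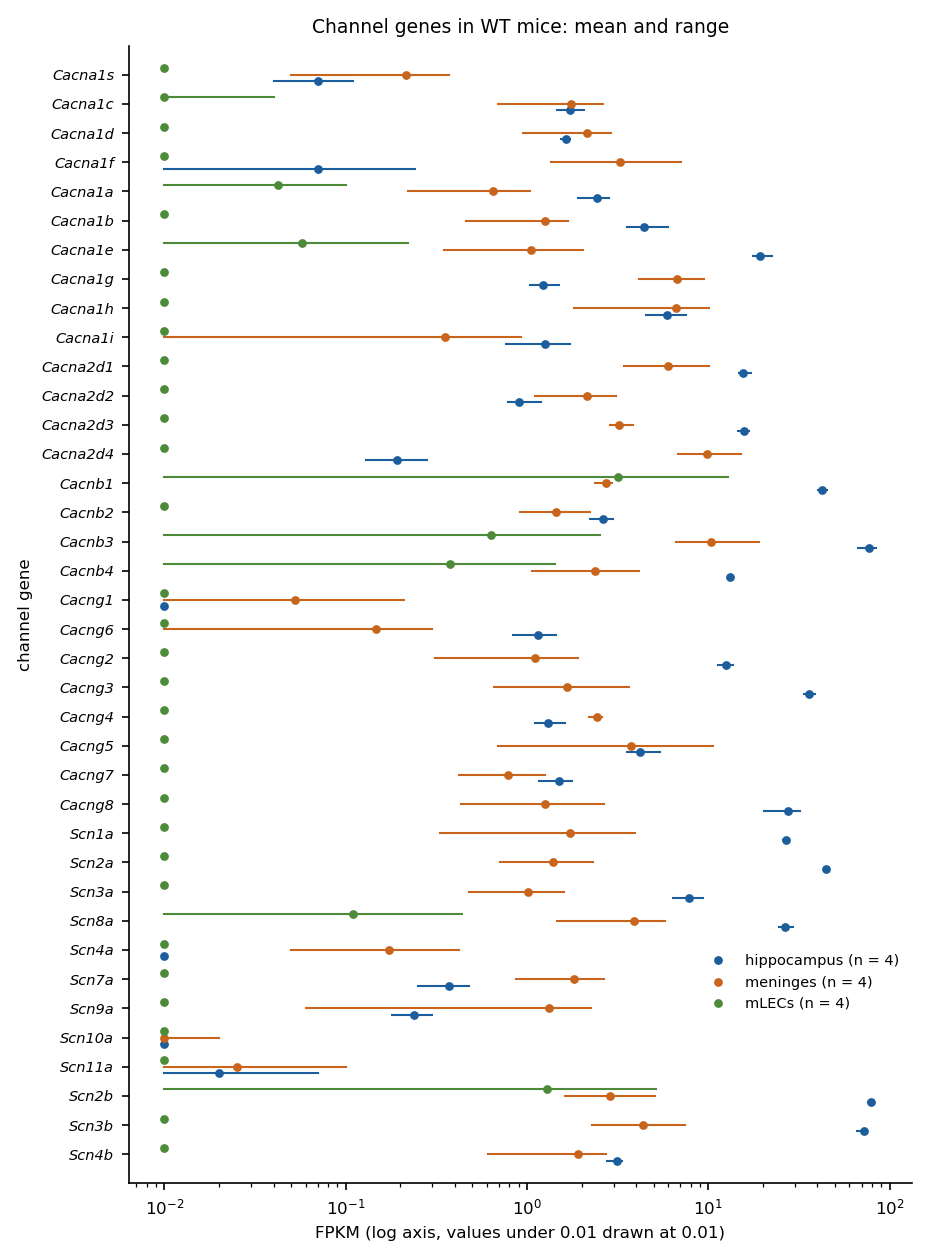
Levels of the channel genes in WT mice, in FPKM on a log axis, by tissue. Scn2b, Cacnb3 and Scn3b are near the right edge in HPC, at 78.6 ± 3.19, 76.6 ± 7.62 and 72.5 ± 4.28 FPKM (SD, n = 4), and most genes are at 0 in mLECs.

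The meninges differed from the HPC in the levels of most channel genes tested. When WT meninges were compared with WT HPC, 34 of the 40 genes were tested, 7 were higher in meninges and 22 were lower, where 37.8% of all genes tested were higher and 33.2% were lower. All 4 sodium pores of brain, all 4 calcium channel beta subunits and all 3 of the P/Q-, N- and R-type pores were lower. The genes higher in meninges were Cacna1f, Cacna2d4, Cacna1g, Scn7a, Scn9a, Cacna2d2 and Cacng4. All 8 of 8 neuron markers were lower in meninges, with a summed level of 202.6 to 569.8 FPKM in the 4 WT meninges against at least 2886 FPKM in WT HPC.

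Cacna1f and Cacna2d4, the L-type pore and the alpha2delta subunit known from photoreceptors, had the largest positive differences. Cacna1f was at 0.02, 0.02, 0 and 0.24 FPKM in the WT HPC samples and at 1.36, 1.73, 7.08 and 2.87 FPKM in WT meninges. Its level was 7.36 ± 0.72 log2 units higher (adjusted p = 7.02e-06, edgeR). Cacna2d4 was at 0.13 to 0.28 FPKM in WT HPC and at 15.1, 8.1, 9.54 and 6.77 FPKM in WT meninges, a difference of 5.51 ± 0.28 log2 units (adjusted p = 1.28e-07, edgeR). For both genes the tissues did not overlap, as for 5035 of all 14144 genes tested in the same direction. The pineal gland, which shares many genes with the retina, sits against the meninges, and 8 of 8 pineal markers were higher in WT meninges, with a sum of 671.1 to 1089 FPKM there and at most 2.41 FPKM in WT HPC. Within the 5xFAD meninges the pineal sum and Cacna2d4 were both lowest in replicate 4, at 257.2 and 2.82 FPKM, and within the 5xFAD + light meninges both were lowest in replicate 1, at 700.5 and 4.35 FPKM. Cacna1f was lowest in replicate 4 of 5xFAD and replicate 1 of 5xFAD + light too, at 1.7 and 1.57 FPKM. In WT meninges the order differed for Cacna1f, which was lowest in replicate 1, where the pineal sum was highest at 1089 FPKM. Cacna1f was highest in replicate 3, where the sum was 872.2 FPKM. Cacna2d4 was highest in replicate 1, as the pineal sum was, at 15.1 FPKM. The part of pineal tissue in the level of these genes was not tested.

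The 8 other genes with the largest differences were all lower in meninges. On the log2 scale the TARPs Cacng3 and Cacng8 differed by -5.21 ± 0.48 (adjusted p = 4.4e-06, edgeR) and -5.05 ± 0.41 (adjusted p = 1.89e-06, edgeR). For Cacng3 this was 33.6 to 38.7 FPKM in WT HPC against 3.65, 0.66, 1.04 and 1.26 FPKM in WT meninges. The sodium channel genes were at -4.82 ± 0.42 for Scn2a (adjusted p = 3.16e-06), -4.81 ± 0.34 for Scn2b (adjusted p = 7.51e-07), -4.05 ± 0.34 for Scn3b (adjusted p = 2.17e-06) and -3.9 ± 0.47 for Scn1a (adjusted p = 2.89e-05), all by edgeR. Cacnb1 and Cacna1e were at -4.17 ± 0.17 and -3.83 ± 0.42 (adjusted p = 6.4e-08 and 1.49e-05, edgeR). In none of these 8 did a WT meninges sample reach a WT HPC sample, which is likely for genes taken for their large differences. Over the 34 channel genes tested, 20 were lower and 5 higher without overlap, beside 4307 and 5035 of all 14144 genes. Of the 5 tested genes that did not pass, Cacna1c was nearest at -0.66 ± 0.28 (adjusted p = 0.0501, edgeR), and the others were Scn4b, Cacna1d, Cacng5 and Cacna1h.

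The other members in meninges are given by their range over the 10 libraries. Cacna1g, a T-type pore also found outside neurons, ran from 4.13 to 9.44 FPKM, above its HPC range, and Cacna1h ran from 1.56 to 10.1 FPKM. Scn7a, a sodium-sensing relative of the channels that is found in glia, ran from 0.87 to 4.95 FPKM, and Scn9a, the pore of pain-sensing neurons, from 0 to 2.24 FPKM. Scn4a and Cacna1s, both of skeletal muscle, reached 0.42 and 0.37 FPKM. Scn10a and Scn11a, which mark sensory neurons, stayed at or below 0.04 and 0.1 FPKM. Cacnb3 ran from 2.62 to 19.1, Cacna2d1 from 3.14 to 10.1, Cacna2d3 from 1.64 to 9.99 and Cacnb4 from 1.06 to 4.13 FPKM. Cacna1a, Cacna1b and Cacna1i reached 1.32, 1.68 and 0.93 FPKM, and Cacnb2, Cacng2, Cacng7 and Cacng5 reached 2.22, 1.92, 1.26 and 10.6 FPKM. Cacng1 and Cacng6, gamma subunits of muscle type, each reached 0.3 FPKM.

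The first comparison asked which channel genes differ in 5xFAD HPC. In 5xFAD against WT HPC, 4 sodium channel genes fell, namely Scn2a, Scn8a, Scn3a and Scn3b, and 1 calcium channel gene, Cacng4, rose. These were 3 of the 4 sodium pores of brain and 1 of the 4 sodium beta subunits, and 1 of the 22 calcium channel genes tested. The 4 that fell of 30 tested stand beside 2.06% of all genes, and the 1 that rose beside 6.48%. The median log2 fold change was -0.19 over the channel genes and 0.01 over all 12981 genes tested.

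Scn2a was at 43.8, 44.4, 45.4 and 44.6 FPKM in WT and at 28.7, 34.6, 34.8 and 34.8 FPKM in 5xFAD. Every 5xFAD sample lay below every WT sample, and the level fell by 0.36 on the log2 scale, with a standard error of 0.09 (adjusted p = 0.0179, edgeR). Scn8a was at 24.6, 26.8, 24.9 and 29.4 FPKM in WT and at 18.0, 19.3, 20.3 and 20.4 FPKM in 5xFAD. It fell by 0.39 on the log2 scale ± 0.1 (adjusted p = 0.0225, edgeR), again without overlap. Both pores sit at the axon initial segment, where the action potential starts. Scn3a was at 8.48, 9.37, 6.35 and 7.16 FPKM in WT and at 4.43, 6.32, 4.11 and 5.15 FPKM in 5xFAD, a fall by 0.53 on the log2 scale ± 0.14 (adjusted p = 0.0288, edgeR). The highest 5xFAD sample lay just below the lowest WT sample. Estimated counts of Scn2a and Scn3a carried decimals in 72.7% and 60.0% of their values above 0, which whole reads alone would not give, and those of Scn8a in 0%, so the levels of the former are taken as less certain.

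Scn3b, the beta3 subunit, had the largest difference among the channel genes of this comparison. It was at 75.0, 75.1, 66.2 and 73.7 FPKM in WT and at 27.2, 51.1, 12.3 and 39.8 FPKM in 5xFAD. The groups did not overlap, and the level was 2.23-fold lower, or -1.15 ± 0.29 on the log2 scale (adjusted p = 0.0264, edgeR). The lowest value came from replicate 3 of 5xFAD. Cacng4, a TARP of glia and young neurons, was at 1.63, 1.1, 1.18 and 1.31 FPKM in WT and at 1.67, 3.06, 2.37 and 1.72 FPKM in 5xFAD. It rose by 0.76 ± 0.21 log2 units (adjusted p = 0.0408, edgeR), with the lowest 5xFAD sample only just above the highest WT sample.

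Without replicate 3 of 5xFAD, Scn3b differed by -0.88 (adjusted p = 0.00331), Scn2a by -0.38 (adjusted p = 0.0137) and Scn8a by -0.42 (adjusted p = 0.0172), all by edgeR and all past the threshold. Scn3a and Cacng4 no longer passed there, at -0.47 (adjusted p = 0.0578) and 0.73 (adjusted p = 0.0702). Cacnb1, which was at 40.1 to 45.3 FPKM in WT and at 37.1, 36.5, 18.8 and 30.2 FPKM in 5xFAD, did not pass with all libraries (adjusted p = 0.0899) and did without that one, at -0.3 (adjusted p = 0.0457, edgeR), as did Cacng3. The count stayed at 5 without that library, with Cacnb1 and Cacng3 in place of Scn3a and Cacng4, and was 6 without replicate 2 of 5xFAD. It fell to 2 without replicate 2 of WT (Scn2a and Scn8a), 1 without replicate 3 of WT (Scn3a), 0 without replicate 4 of WT and 1 without replicate 1 of 5xFAD (Cacng4). In these 4 fits 129, 126, 81 and 137 of all genes fell, against 267 with all libraries. Over the 30 genes tested, 6 had every 5xFAD sample below every WT sample and 1 had every one above, where 5.79% and 8.75% of all genes did. Without replicate 3 of 5xFAD these were 10 and 1, where 7.96% and 10.9% of all genes did. Replicate 3 was also the highest 5xFAD sample for Scn1a at 41.7 FPKM, Scn4b at 7.94 FPKM, Cacnb4 at 27.0 FPKM and Cacna1d at 2.92 FPKM, all outside the range of the 4 WT samples.

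The summed level of 5 excitatory neuron markers was 2237 to 2611 FPKM in WT and 1646 to 2329 FPKM in 5xFAD, which overlapped. It was 2371 to 2691 FPKM in 5xFAD + light, and its median was lowest in 5xFAD, where the 4 sodium channel genes were low. The part of this in the result was not tested. 8 general neuron markers summed to 2886 to 3256 FPKM in WT and 2620 to 2977 FPKM in 5xFAD. They summed to 2545 to 2796 FPKM in 5xFAD + light, where their median was the lowest of the 3 groups. In edgeR 0 of the 8 passed the adjusted threshold in 5xFAD against WT, and 1 was lower at an unadjusted p below 0.05. CA1 markers were lower at an unadjusted p below 0.05 in 4 of 5, with a sum of 153.3 to 164.8 FPKM in WT and 60.4 to 134.7 FPKM in 5xFAD, and 0 of them passed after adjustment.

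Markers of cells other than neurons rose in the same comparison. In edgeR 5 of 5 microglia markers, 4 of the 4 leukocyte markers tested, 3 of 5 astrocyte markers and 4 of 10 leptomeningeal fibroblast markers passed the adjusted threshold upward. The microglia sum was 214.3 to 249.9 FPKM in WT and 462.4 to 650.6 FPKM in 5xFAD, the leukocyte sum 14.1 to 27.3 and 161 to 281.9 FPKM, the astrocyte sum 581.2 to 706.3 and 739.6 to 3093 FPKM, and the fibroblast sum 33.5 to 69.2 and 47.6 to 128.8 FPKM. The part of these cells in the channel differences was not tested.

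**Figure D2:**
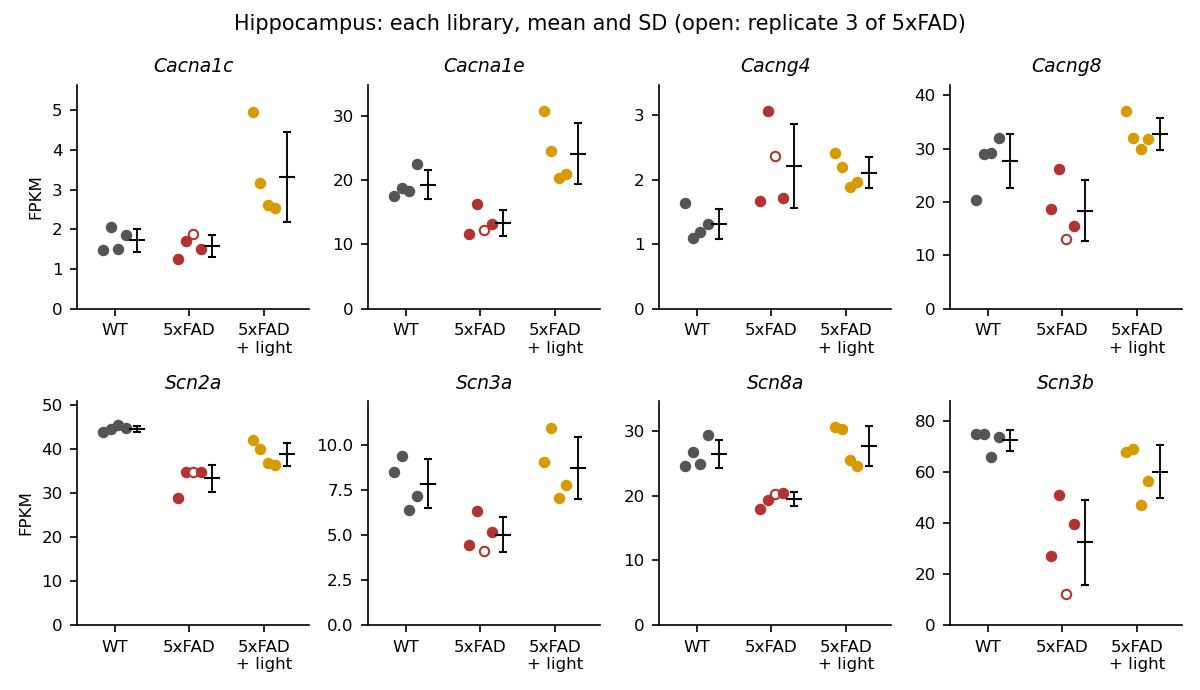
FPKM of 8 channel genes in each HPC library, by group, with mean and SD (n = 4 per group). Scn2a, Scn8a, Scn3a and Scn3b are lower in every 5xFAD sample than in every WT sample, and Cacna1c is higher in every 5xFAD + light sample than in every other sample.

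The next question was which channel genes differ between light-treated and untreated 5xFAD HPC. 3 of the 30 tested genes rose, Cacna1c, Scn3a and Cacna1e, and 0 fell, where 0.27% of all genes rose and 0.185% fell. 1 is an L-type calcium pore, 1 an R-type calcium pore and 1 a sodium pore. Cacna1c was at 1.24, 1.71, 1.88 and 1.49 FPKM in 5xFAD and at 4.95, 3.16, 2.61 and 2.53 FPKM in 5xFAD + light. Cacna1c encodes the L-type channel that links synaptic activity to transcription in neurons and is also the calcium channel of heart and smooth muscle. Its level was 2.05-fold higher with light, at 1.04 ± 0.15 log2 units (adjusted p = 0.0328, edgeR), and no treated sample overlapped an untreated one.

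Cacna1e was at 11.6, 16.3, 12.3 and 13.2 FPKM in 5xFAD and at 30.8, 24.6, 20.3 and 21.0 FPKM in 5xFAD + light, a rise of 0.79 ± 0.16 log2 units (adjusted p = 0.0496, edgeR). Scn3a was at 4.43, 6.32, 4.11 and 5.15 FPKM in 5xFAD and at 9.05, 10.9, 7.04 and 7.77 FPKM in 5xFAD + light, a rise of 0.8 ± 0.14 log2 units (adjusted p = 0.0402, edgeR). Both showed no overlap. Estimated counts of Cacna1e carried decimals in 79.3% of their values above 0 and those of Cacna1c in 0%, so the level of Cacna1e, like that of Scn3a, is taken as less certain. Scn8a missed the threshold narrowly, at 18.0 to 20.4 FPKM in 5xFAD and 30.6, 30.2, 25.5 and 24.5 FPKM in 5xFAD + light (0.48 ± 0.1, adjusted p = 0.0502, edgeR).

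Whether these 3 rises passed depended on the libraries and the fit. Without replicate 3 of 5xFAD, Cacna1c kept its size at 1.03 but its adjusted p was 0.0574, that of Scn3a was 0.0574 and that of Cacna1e was 0.0711, so 0 of the 30 genes passed in edgeR. Of all 12981 genes, 1 rose and 2 fell in that fit, against 35 and 24 with all libraries. When the 5xFAD and 5xFAD + light samples were fitted alone, 0 passed as well, where 0 of all genes rose and 1 fell. DESeq2 on the counts of all 3 groups called 7 higher and 1 lower, where it called 356 and 285 of all genes. The count was 0 as well without replicate 2 or replicate 4 of 5xFAD + light, 1, Cacna1c, without replicate 1 or 4 of 5xFAD or replicate 1 of 5xFAD + light, and 5 without replicate 2 of 5xFAD. Of all genes 0 passed without replicate 2 or replicate 4 of 5xFAD + light. In the fits with Cacna1c alone 5, 3 and 1 of all genes rose, and 183 rose without replicate 2 of 5xFAD. At an unadjusted p below 0.05, 9 channel genes were higher and 1 was lower, where 8.54% and 9.81% of all genes were. In 7 genes every treated sample lay above every untreated sample, where 3.66% of all genes did so, and without replicate 3 of 5xFAD in the same 7, where 5.51% of all genes did. These were Cacna1c, Cacna1e, Cacna1h, Cacng8, Scn2a, Scn3a and Scn8a.

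Of the genes that did not pass, several had wide differences. Cacng8, the TARP that is most typical of hippocampus, was at 18.7, 26.2, 13.0 and 15.6 FPKM in 5xFAD and at 37.0, 32.0, 30.0 and 31.8 FPKM in 5xFAD + light (0.81 ± 0.21, adjusted p = 0.0986, edgeR). Cacna1h was at 4.82, 5.78, 4.26 and 3.06 FPKM and at 10.7, 9.89, 6.12 and 6.91 FPKM (0.98 ± 0.27, adjusted p = 0.11). Scn3b was at 27.2, 51.1, 12.3 and 39.8 FPKM and at 68.0, 69.1, 47.3 and 56.6 FPKM, and these groups overlapped (0.9 ± 0.29, adjusted p = 0.145). In the other direction Cacna2d2 was at 2.27, 1.01, 1.27 and 1.53 FPKM and at 0.65, 1.13, 0.53 and 0.89 FPKM (-0.95 ± 0.28, adjusted p = 0.121). The median log2 fold change was 0.14 over the 30 genes and -0.02 over all genes tested, and without replicate 3 of 5xFAD it was 0.29 and -0.02.

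Cell type markers moved in this comparison as well. Leptomeningeal fibroblast markers were lower under light in 10 of 10, with 2 past the adjusted threshold in edgeR and a median of -1.65, and their sum was 47.6 to 128.8 FPKM in 5xFAD and 17.9 to 31.3 FPKM in 5xFAD + light, without overlap. Choroid plexus markers were lower in 6 of 6, with a median of -2.43 and 0 past the adjusted threshold, and their sum ran from 205.2 to 3189 FPKM and from 63.0 to 244.2 FPKM. Dentate gyrus markers were higher in 5 of 5, with a median of 1.08, 4 at an unadjusted p below 0.05 and 0 after adjustment, and their sum was 14.4 to 140.4 FPKM in 5xFAD and 139.8 to 214.2 FPKM under light. Inhibitory neuron markers were lower in 6 of 6, with 5 at an unadjusted p below 0.05 and 0 after adjustment. The part of these cells in the channel differences was not tested.

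**Figure D3:**
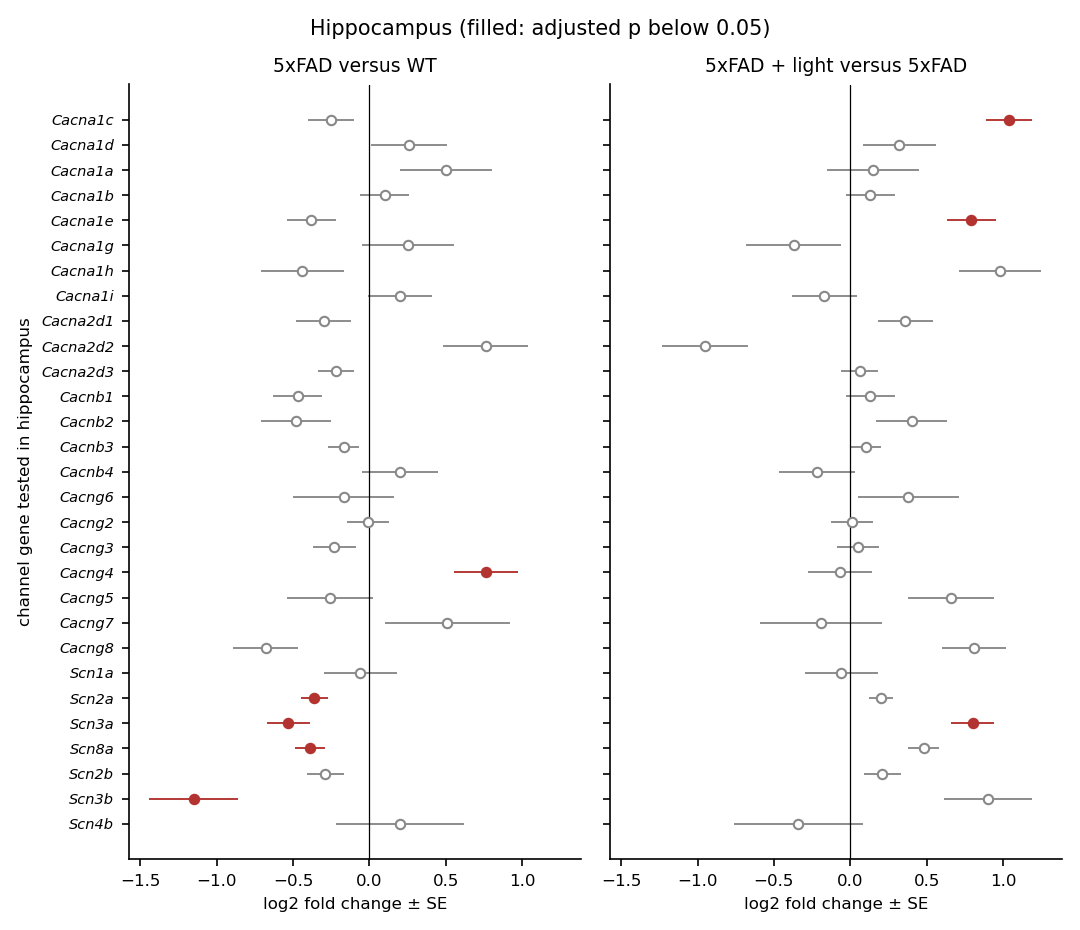
Log2 fold changes with standard errors of 29 channel genes tested in HPC, for 5xFAD against WT and for 5xFAD + light against 5xFAD. Both comparisons share the 4 untreated 5xFAD samples. Scn3b is farthest to the left at -1.15 in the former, and Cacna1c farthest to the right at 1.04 in the latter.

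Light-treated 5xFAD was also set against WT, to see which channel genes were off the WT level under treatment. Cacna1c alone of the 30 genes rose, from 1.47, 2.05, 1.49 and 1.86 FPKM in WT to 4.95, 3.16, 2.61 and 2.53 FPKM, by 0.79 ± 0.15 log2 units (adjusted p = 0.00673, edgeR), and 0 fell. 3.05% of all genes rose and 0.539% fell. The groups did not overlap for Cacna1c, and the call held in 14 of 16 alternative analyses. The next genes did not pass, Cacng4 at 0.7 ± 0.21 (adjusted p = 0.105) and Cacna1e at 0.41 ± 0.16 (adjusted p = 0.205), both by edgeR. At an unadjusted p below 0.05, 5 channel genes were higher and 0 lower, where 10.4% and 6.28% of all genes were. DESeq2 called 2 higher and 0 lower after adjustment, where it called 628 and 245 of all genes.

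The 4 sodium channel genes that were low in 5xFAD did not pass against WT under light. Their differences were -0.16 for Scn2a with a 95% interval from -0.33 to 0.01, 0.09 for Scn8a from -0.1 to 0.28 and 0.27 for Scn3a from 0 to 0.54. Scn3b was at -0.25, with an interval from -0.82 to 0.32. These intervals are approximate. They apply the normal distribution to the standard error, which makes them somewhat narrow for groups of this size. The 5xFAD samples enter both of the preceding comparisons, so a low value in them lowers one difference and raises the other. 6 inhibitory neuron markers summed to 505.9 to 627.5 FPKM in WT, 291.3 to 551.5 FPKM in 5xFAD and 169.3 to 291 FPKM in 5xFAD + light, and 4 of the 6 were lower under light than in WT. Scn1a, which those neurons express, was at 24.1, 37.2, 20.7 and 21.6 FPKM under light and 25.7 to 27.7 FPKM in WT, with the treated values on both sides of the WT range.

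In the meninges no channel gene passed the adjusted threshold in any of the 3 comparisons. Spread was larger there, and on simulated counts with the spread of these libraries 0 of 200 genes changed 2-fold were recovered in meninges and 145 of 200 changed 4-fold, against 151 and 192 in HPC. In 5xFAD against WT, 0 of 28 passed in edgeR and 0 in DESeq2, where 0% of all genes did in edgeR. At an unadjusted p below 0.05, 0 channel genes were higher and 2 were lower, beside 2.12% and 1.89% of all genes. The 3 genes with the smallest p were Cacng3, Scn4b and Scn7a. Cacng3 was at 3.65, 0.66, 1.04 and 1.26 FPKM in WT and at 0.73, 0.2 and 0.14 FPKM in 5xFAD (-2.15 ± 0.9, adjusted p = 0.987, edgeR). Scn4b was at 1.82, 0.61, 2.49 and 2.71 FPKM against 0.89, 0.36 and 1.01 FPKM (-1.32 ± 0.6), and Scn7a at 1.3, 0.87, 2.65 and 2.44 FPKM against 3.1, 1.74 and 4.95 FPKM (0.87 ± 0.44), both with an adjusted p of 0.987.

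Most channel genes were lower, without passing, in light-treated 5xFAD meninges than in untreated 5xFAD meninges. The sign was negative in 24 of 28 genes and in 10 of the 10 sodium channel genes tested, with a median of -0.66 over the channel genes and 0.04 over all 14318 genes. The median was -0.33 with transcript length in the fit, -0.34 in limma with a pseudocount of 1 and -0.34 over the 5 channel genes with a mean of 5 FPKM. Adjusted p was below 0.05 for 0 of them in edgeR, where it was for 0.014% of all genes. DESeq2 called 0 of them too, where it called 20 of all genes higher and 59 lower. At an unadjusted p below 0.05, 0 were higher and 8 were lower, where 5.01% and 7.71% of all genes were. In 5 genes every treated sample lay below every untreated one, where 10.7% of all genes did. Excitatory neuron markers moved with them, lower in 4 of the 4 tested with a median of -1.38, and their sum was 18.2 to 31.6 FPKM in 5xFAD and 6.57 to 14.6 FPKM under light, without overlap. General neuron markers were lower in 5 of 7, with a median of -0.66, while their sum overlapped, at 112.4 to 282.5 and 137.4 to 429.7 FPKM. Of both lists 0 passed the adjusted threshold, and their part in the channel values was not tested.

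Cacna1d, an L-type pore that opens at low voltage and paces firing, was at 2.73, 2.65 and 1.71 FPKM in 5xFAD and at 1.02, 1.03 and 0.72 FPKM in 5xFAD + light (-1.37 ± 0.38, adjusted p = 0.286, edgeR). Scn8a was at 3.37, 3.04 and 2.6 FPKM and at 1.88, 1.77 and 1.47 FPKM (-1.15 ± 0.4, adjusted p = 0.308), and Cacna2d2 at 2.83, 2.62 and 3.43 FPKM and at 1.76, 1.76 and 1.04 FPKM (-0.95 ± 0.38, adjusted p = 0.339). None of these 3 overlapped between the groups. Cacna1d counts carried decimals in 95.7% of values and 589 of its exon bases overlap Chdh on the opposite strand, so its level is uncertain.

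Against WT, the same 3 light-treated meninges again had mostly lower values of the channel genes. The sign was negative in 25 of 28 genes, and the median was -1.04 over the channel genes and 0.01 over all genes. In edgeR 0 passed, where 0.014% of all genes did. DESeq2 called 2 lower, Scn8a and Scn3b, where it called 137 of all genes higher and 300 lower. At an unadjusted p below 0.05, 0 were higher and 12 lower, beside 8.13% and 8.32% of all genes, and 4 did not overlap, beside 5.34%. General neuron markers were lower in 7 of 7, with a median of -1.25, and excitatory ones in 4 of 4, with a median of -1.8, and 0 of them passed after adjustment. Scn8a was at 3.22, 1.46, 5.78 and 5.17 FPKM in WT (-1.38 ± 0.38, adjusted p = 0.146), Scn3b at 7.45, 2.29, 4.46 and 3.18 FPKM in WT and 0.22, 2.35 and 0.59 FPKM under light (-2.04 ± 0.6, adjusted p = 0.156), and Cacna1d at 1.95, 0.95, 2.91 and 2.71 FPKM in WT (-1.17 ± 0.36, adjusted p = 0.167), by edgeR. In all 3 genes the groups overlapped. Replicate 2 of WT was the lowest WT sample for each, and without it 2 genes passed in edgeR.

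**Figure D4:**
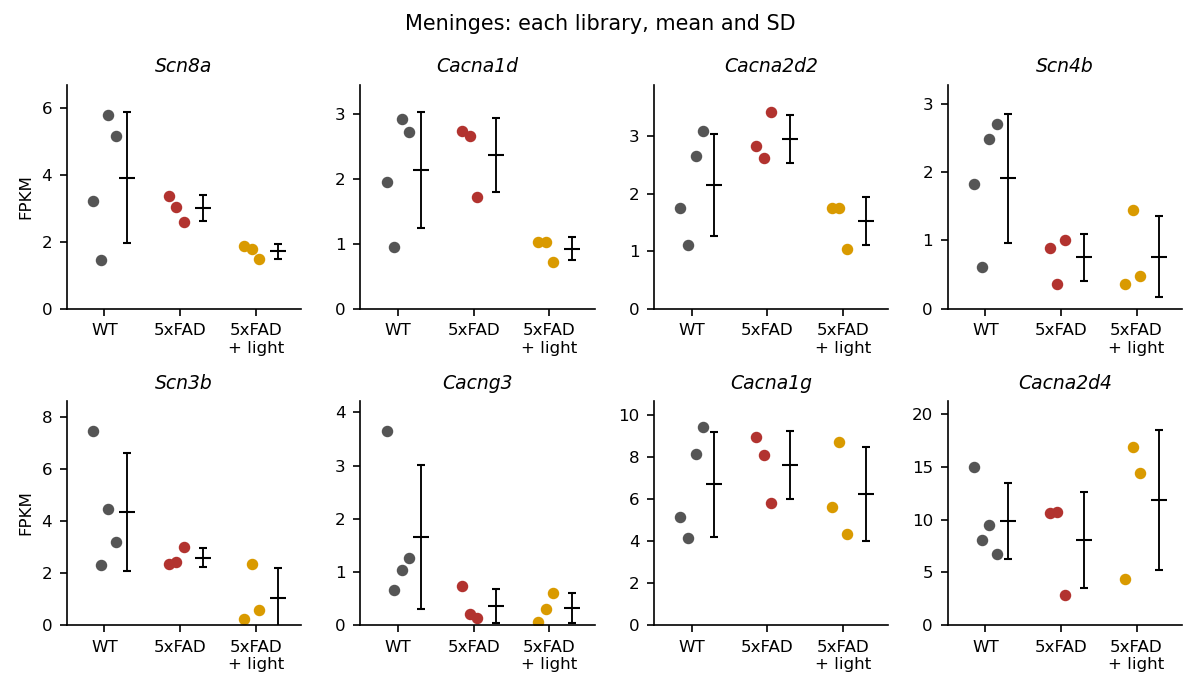
FPKM of 8 channel genes in each library of meninges, by group, with mean and SD (n = 4, 3 and 3). Scn8a, Cacna1d and Cacna2d2 are lower in every 5xFAD + light sample than in every 5xFAD sample, and none of the 8 passed the adjusted threshold.

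Transcript length moved with these differences. In meninges with against without light, the median over all genes with a longest transcript of 8 kb and over was -0.53, and that over genes under 2 kb was 0.14. 12 channel genes tested there are in the long class, and their median was -1.11. In HPC with against without light the slope ran the other way, with 0.13 for the 769 long genes, -0.14 for the 2692 short ones and 0.26 for the 12 long channel genes. Of the 3 genes that rose in HPC under light, all are in the long class. With transcript length taken into the fit, an alternative chosen after seeing the data, Cacna1c rose by 0.86 (adjusted p = 0.0434), while Scn3a at 0.64 (adjusted p = 0.0666) and Cacna1e at 0.62 (adjusted p = 0.0595) did not pass. In 5xFAD against WT HPC the long and short classes were at -0.05 and 0.13, and with length in the fit Scn8a (-0.31, adjusted p = 0.0406) and Scn3b (-1.11, adjusted p = 0.0307) passed, and Scn2a (-0.28, adjusted p = 0.063) and Scn3a (-0.45, adjusted p = 0.0606) did not.

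**Figure D5:**
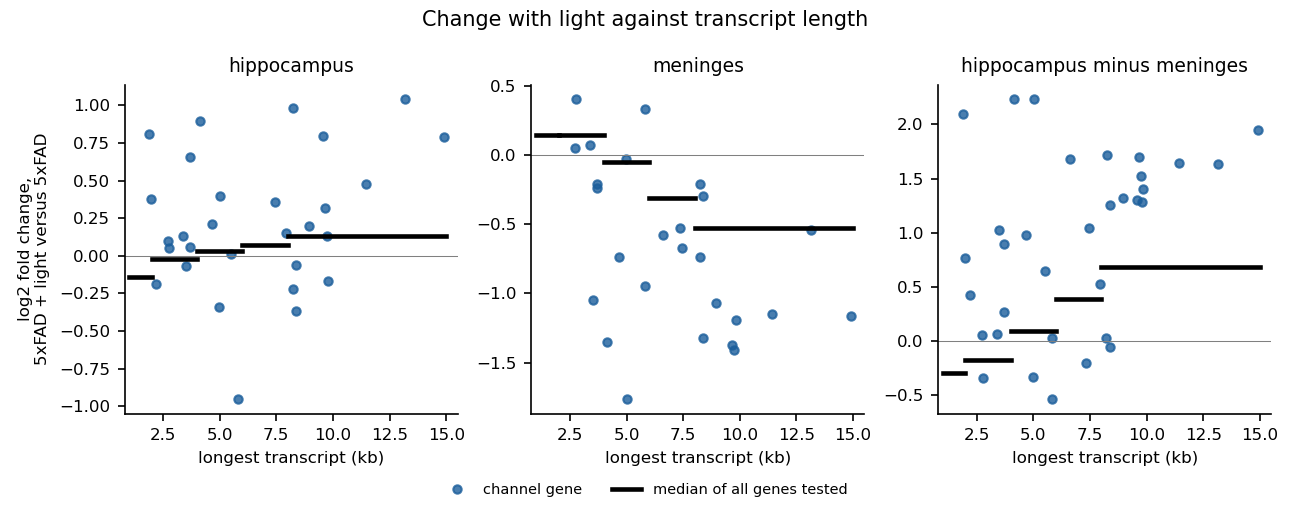
Log2 fold change of channel genes against the length of its longest transcript in kb, with the medians over all genes in 5 length classes, for light-treated against untreated 5xFAD in HPC and in meninges and for the difference between them. The medians of all genes run from -0.14 to 0.13 with length in HPC and from 0.14 to -0.53 in meninges.

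Whether the change with light differed between the tissues was tested in 1 fit over the HPC and meninges libraries, which held 35 channel genes. Scn8a was the gene that passed. Its change with light was 1.64 ± 0.39 log2 units more positive in HPC than in meninges (adjusted p = 0.0465, edgeR), where 0.806% of all genes passed in this direction and 0.245% in the other. Scn8a values were 18.0 to 20.4 FPKM in 5xFAD and 24.5 to 30.6 FPKM in 5xFAD + light in HPC, and 2.6 to 3.37 FPKM and 1.47 to 1.88 FPKM in meninges. Cacna1e (1.95, adjusted p = 0.0677), Cacna1d (1.7, adjusted p = 0.0696) and Cacna1c (1.63, adjusted p = 0.0713) came next and did not pass. At an unadjusted p below 0.05, 14 genes had the more positive change in HPC and 0 in meninges, where 10.9% and 8.93% of all genes did.

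The call for Scn8a depended on the fit. Without replicate 3 of 5xFAD HPC its adjusted p was 0.0598, and Cacna1d passed instead at 2.02 (adjusted p = 0.0452, edgeR). With transcript length in the fit the difference was 0.93 (adjusted p = 0.149), and the medians over all genes in this contrast were 0.68 for the long class, -0.29 for the short class and 1.36 for the 14 long channel genes. For 5xFAD against WT, 0 of the 35 genes passed in edgeR and 0 in DESeq2, where 1.74% of all genes passed in edgeR. The smallest p were those of Cacng3 (2.06 ± 0.7, adjusted p = 0.169), Cacng4 (1.14 ± 0.46, adjusted p = 0.262) and Cacna2d4 (1.3 ± 0.61, adjusted p = 0.376), and at an unadjusted p below 0.05 these 3 were higher and 0 lower, beside 9.61% and 3.16% of all genes.

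In mLECs few of the channel genes were detected. 24 of the 40 genes were at 0 in all 10 libraries and 33 stayed below 1 FPKM in every library. The genes listed at 0 throughout were Cacna1s, Cacna1f, Cacna1b, Cacna1h, all 4 alpha2delta genes, Cacnb2, all 8 gamma genes, Scn1a, Scn2a, Scn7a, Scn9a, Scn10a, Scn11a and Scn3b. Each library detected 5998 to 9020 genes, against 16371 to 18264 in HPC, at a similar total of counts. A 0 therefore limits detection and does not show absence. Lymphatic endothelial markers were present, with a sum over 8 genes of 227.3 to 7078 FPKM in WT, 1447 to 4728 FPKM in 5xFAD and 3347 to 9930 FPKM in 5xFAD + light. Blood endothelial markers summed to 1077 to 3932, 1940 to 2803 and 1885 to 2728 FPKM in the same groups. Leukocyte and choroid plexus markers reached 1521 and 562.9 FPKM in WT, and smooth muscle markers 574.3 FPKM in 5xFAD. Excitatory neuron markers summed to 0 to 12.3 FPKM, general neuron markers reached 39.2 FPKM in 5xFAD + light, and pineal markers were at 0.

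In mLECs 2 channel genes had enough reads to be tested. Cacna1e, 1 of them, was at 0, 0, 0.22 and 0.01 FPKM in WT, at 4.47, 0 and 6.47 FPKM in 5xFAD and at 0.42, 2.29 and 0.35 FPKM in 5xFAD + light. All 3 light-treated samples lay above the 4 WT samples, but the 5xFAD values ran from 0 to the highest of all. The fitted differences were 4.27 ± 3.22, -0.97 ± 3.2 and 3.3 ± 3.1 log2 units for 5xFAD against WT, light against 5xFAD and light against WT (adjusted p = 1 in each, edgeR). For these 3 comparisons 0 of 2 genes passed in edgeR and 0 in DESeq2, and 0 had an unadjusted p below 0.05. Of all genes, 0%, 0% and 0.0122% passed after adjustment in edgeR, and 3.81%, 4.01% and 6.72% before it.

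The remaining reads in mLECs were scattered, with Cacnb4 above 0 in 6 libraries, Cacna1a in 4, Scn3a in 3 and the others in 1 or 2. Cacnb1 was at 12.8 FPKM in replicate 3 of WT, Cacnb3 at 2.54 FPKM in replicate 1 of WT, and Scn2b at 5.17 FPKM in replicate 4 of WT and 11.3 FPKM in replicate 2 of 5xFAD. Scn3a reached 3.84 FPKM in replicate 1 of 5xFAD + light and Cacnb4 reached 1.43 FPKM, with reads in 6 libraries. Scn8a, Cacna1a, Cacna1c, Scn4b, Scn4a, Cacna1d, Cacna1g and Cacna1i reached at most 0.44, 0.1, 0.04, 0.03, 0.01, 0.01, 0.01 and 0.01 FPKM. Reads in 1 library and few or none in its replicates, as for Cacnb1 with 361 counts, give no level for a group.

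The genes of proteins that bind, place or work beside these channels were read from a list of 44 genes. In 5xFAD against WT HPC, 39 were tested, 2 rose and 2 fell, where 6.48% and 2.06% of all genes did. Itpr2, a calcium release channel, rose by 0.45 ± 0.12 (adjusted p = 0.0364) and Rrad, a small GTPase that inhibits calcium channels, by 2.03 ± 0.56 (adjusted p = 0.0383). Fgf14, which binds sodium channels at the axon initial segment, fell by 0.49 on the log2 scale ± 0.13 (adjusted p = 0.0279), and Nrcam, an adhesion protein of the same site, fell by 0.41 ± 0.1 (adjusted p = 0.0243), all by edgeR. With light against without, 1 of the 39 rose, Ryr1, a calcium release channel coupled to L-type channels, by 1.49 ± 0.26 (adjusted p = 0.0445), and 0 fell, where 0.27% of all genes rose. Against WT, 1 of the 39 was higher under light, Itpr2 (0.54 ± 0.12, adjusted p = 0.0237), where 3.05% of all genes were, and with transcript length in the fit 0 passed.

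Some of these calls also changed with the libraries and the fit. Without replicate 3 of 5xFAD HPC, Ryr1 did not pass with light against without, where edgeR then called 0 of 39 and DESeq2 with all libraries called 9 higher. Of all genes edgeR then called 1 higher and 2 lower, and DESeq2 with all libraries 356 and 285. In 5xFAD against WT without that library, 7 passed, since Fgf14, Nrcam and Rrad remained, Itpr2 did not, and Ank3, Camk2b, Gem and Itpr1 were added. With the 2 groups fitted alone only Fgf14 passed, and with transcript length in the fit Fgf14 and Itpr2 passed with Calm2 and Jph3, and Nrcam and Rrad did not. In meninges 0 of the 34 tested passed in edgeR in any of the 3 comparisons, with at most 1 higher and 10 lower at an unadjusted p below 0.05 and at most 4 lower in DESeq2. Those 4 were lower in light against WT, where DESeq2 called 300 of all genes lower. In mLECs 0 of 11 passed in edgeR, with at most 1 higher and 1 lower before adjustment and at most 1 lower in DESeq2. That 1 was lower in light against WT, where DESeq2 called 360 of all genes lower. In WT meninges against WT HPC, 9 of the 40 partners tested were higher and 30 were lower, where 37.8% and 33.2% of all genes were. In the test between tissues 3 of 41 had the more positive change with light in HPC, where 0.806% of all genes did, Ryr1 (2.83, adjusted p = 0.041), Ryr2 (2.12, adjusted p = 0.0456) and Unc80 (1.89, adjusted p = 0.0448), by edgeR. Without replicate 3 of 5xFAD HPC Ryr1 and Unc80 passed and Ryr2 did not, and with transcript length in the fit 0 did.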

How the data were processed

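RNA from hippocampus, meninges and sorted mLECs was made into Smart-seq2 libraries and sequenced. Per the methods the reads were trimmed with fastp and quantified with RSEM, while the submitters' processing notes name Trimmomatic, HISAT2, StringTie, DESeq2 and build mm10, and which made the tables was not settled here. The authors deposited estimated counts per gene, which need not be whole, and FPKM, which the authors scaled by transcript length and library size, in 1 table for hippocampus and meninges and 1 for mLECs, with their own comparisons in further columns that were not used. Genes were joined by identifier, and the symbols of 3 channel genes differed between the tables. Positions and transcript lengths came from GENCODE on GRCm38.

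Estimated counts were rounded, scaled by TMM and tested with the edgeR 4.0.16 quasi-likelihood test in R 4.3.3, with 1 fit per tissue over its 3 groups, genes at 1 FPKM or more in at least 3 libraries, and Benjamini-Hochberg adjustment over all genes tested. 2 further fits compared WT meninges with WT hippocampus, and the changes between these tissues. Within a tissue separate animals are the replicates, and p-values measure the spread between them. The number of libraries, 3 or 4 a group, limits the precision, beside the depth given in the text. Alternatives were DESeq2 1.42.0, limma 3.58.1 on log2(FPKM + 1) and on log2(FPKM + 0.1), another scaling and other filters, the compared groups alone, a replicate block, each library left out and, added after seeing the data, an offset for transcript length and the test between tissues without replicate 3 of 5xFAD hippocampus. The edgeR script was tested on simulated data, with the shares recovered given in the text for light against no light.

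Every channel gene was named except 2, which are not reported here and enter only the counts and medians over the genes, with full statistics for those past an adjusted p of 0.05, or the genes with the smallest p where fewer than 3 passed, and the 10 largest differences where more than 10 passed. The channel genes, the list of partner genes and the cell type marker lists were chosen with earlier results of these data known. Replicate numbers were shared between groups, but within a tissue the deviations of same-numbered samples from their group means correlated at -0.31 to 0.244. The numbers were therefore not taken to pair samples across groups. Whether same-numbered hippocampus and meninges samples came from the same mouse was not checked. The fits across these tissues treated them as separate, and the replicate block between the WT tissues joined them by number. Promoter sequences were those of RefSeq. 0 columns of samples outside the series' labels were found.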

Additional observations from a re-analysis of the deposited data

Results flagged for a closer look

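In 6 of 120 groups of 4 libraries, 1 library lay far from the other 3 by Dixon's test, and chance alone marks about 1 in 20 such groups. In HPC these were Cacna2d2 at 1.19 FPKM in replicate 1 of WT against 0.79 to 0.84 in the others, Scn3b at 66.15 FPKM in replicate 3 of WT against 73.72 to 75.12, Scn2a at 28.73 FPKM in replicate 1 of 5xFAD against 34.64 to 34.81, and Cacna1g at 1.94 FPKM in replicate 2 of 5xFAD + light against 0.81 to 0.92. In WT meninges Cacnb3 was at 19.09 FPKM in replicate 1 against 6.61 to 7.99, the library with the highest summed neuron markers of the meninges, at 569.8 FPKM. In WT mLECs Cacna1e was at 0.22 FPKM in replicate 3 against 0 to 0.01. None of the 6 was replicate 3 of 5xFAD HPC.

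The change with light in Scn8a differed between tissues in a test of that difference, with 1.64 log2 units more in HPC than in meninges. Its adjusted p was 0.0465 in edgeR, and the call was lost in 5 of 8 alternatives.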

How the results depend on the processing

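Of the values that answer a comparison, 297 alternatives gave an equal or similar count of calls or a median within the spread between libraries. 27 lost and 7 gained calls, and 3 moved a median beyond that spread. The sign of a median and the identity of the called genes did not enter this tally. Part of it comes from meninges and mLECs, where 0 channel genes passed in most fits within a tissue. Medians in mLECs were over 2 genes, with a spread between libraries of 2.37 log2 units. Such results could hardly differ, so the tally does not measure how stable the HPC calls are. In HPC, 5xFAD against WT gave 5 called channel genes, but 2 with the compared groups alone, 2 with the replicate block and 1 with a 2-fold minimum. The block changed the call of Scn2a (adjusted p = 0.0517), Scn8a (0.0628) and Cacng4 (0.0879) there, of Cacna1e with light against without (0.0719) and of Scn8a between tissues (0.0558). It added Cacna1h with light against without (0.0376), Cacna1c (0.0348) and Scn4b (0.041) between the WT tissues and Cacna1c in the test between tissues (0.0346), and changed the call of no other channel gene. The numbers were not shown to pair samples. Light against 5xFAD gave 3, but 0 at a mean of 5 FPKM, 0 with the groups alone, 8 in DESeq2, 1 in limma with either pseudocount, 1 with the length offset and 1 with a 2-fold minimum. Over all genes it called 35 higher and 24 lower, and 0 and 1 with the groups alone. At a mean of 5 FPKM 0 of all genes passed, and DESeq2 called 356 higher and 285 lower. Light against WT gave 1, but 0 at a mean of 5 FPKM, where Cacna1c was not tested, 4 with the groups alone, 2 in DESeq2, 0 in limma with either pseudocount and 0 with a 2-fold minimum. Over all genes it called 396 higher and 70 lower, 706 and 403 with the groups alone, and 628 and 245 in DESeq2. In meninges light against WT gave 0, but 2 in DESeq2, and its median of -1.04 was -0.58 at a mean of 5 FPKM and -0.59 in limma with a pseudocount of 1. DESeq2 called 137 of all genes higher and 300 lower there. WT meninges against WT HPC gave 29 of 34 tested, and 16 of the 17 tested at a mean of 5 FPKM. The test between tissues under light gave 1, but 0 without a filter, 6 in DESeq2, 0 in limma and 0 with the length offset. Over all genes DESeq2 called 466 with the more positive change in HPC and 269 in meninges, against 122 and 37 in edgeR. In mLECs the median of light against WT, 1.03, was -1.57 without a filter.

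With 1 library left out, the calls ran from 0 to 6 for 5xFAD against WT in HPC (0 without replicate 4 of WT), 0 to 5 for light against 5xFAD (0 without replicate 3 of 5xFAD or replicates 2 and 4 of 5xFAD + light), 0 to 2 for light against WT in meninges and 27 to 31 between the WT tissues, and stayed at 1 for light against WT in HPC. For light against 5xFAD in HPC, 1 of all genes rose and 2 fell without replicate 3 of 5xFAD. Without replicate 2 or replicate 4 of 5xFAD + light 0 of all genes passed. Medians ran from -0.24 to -0.14, 0.12 to 0.29 and 0 to 0.05 in HPC, -0.43 to -0.06, -0.82 to -0.61 and -1.28 to -0.8 in meninges, and 0.81 to 4.15, -1.93 to 0.23 and -0.05 to 3.31 in mLECs, for 5xFAD against WT, light against 5xFAD and light against WT. In mLECs the sign of Cacna1e for light against 5xFAD turned with 1 library left out, where its value ran from -2.05 to 0.55 (0.55 without replicate 1 of 5xFAD). The cause was not tested. Groups of 3 or 4 mice, the spread of meninges and the sparse mLEC libraries limit these calls, and on simulated mLEC counts 0 of 200 genes changed 2-fold and 2 of 200 changed 4-fold were recovered.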
